A study of Drosophila melanogaster with 5 samples.

Results

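Pita and Zw5 are zinc-finger DNA-binding proteins of Drosophila that are described as architectural or insulator proteins. Pita is known to bind boundary elements of the bithorax complex, and Zw5 is known to bind the scs insulator. ZIPIC is another zinc-finger protein of this kind, and like Pita it is known to interact with CP190, a cofactor found at many insulators. All 3 proteins carry an N-terminal ZAD domain, a module through which such proteins dimerise.

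The sites described here are those on the autosomal arms 2L, 2R, 3L and 3R where a called interval of Pita overlapped one of Zw5 by at least 1 bp and neither interval overlapped one of ZIPIC. There were 191 such pairs, made of 189 Pita intervals out of 1404 on these arms (1845 in all) and 191 Zw5 intervals out of 560 (695 in all). Before pairs with ZIPIC were left out there were 240, so 49 were dropped. The pairs were chosen from the peak lists called against input, so their enrichment over input is a description of what was chosen and is given without a test. Of all autosomal intervals, the rule took 13.5% of those of Pita and 34.1% of those of Zw5.

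Chromatin came from whole wild-type Oregon-R embryos of Drosophila melanogaster, collected over 12 h and fixed with formaldehyde. The rabbit antibodies are labelled by their antigens, which were residues 550 to 683 for Pita, 98 to 302 for Zw5 and 84 to 257 for ZIPIC. The controls were input DNA and a precipitate with preimmune rabbit sera, although the protocol text names rabbit IgG for the incubation. Each of the 5 libraries was sequenced once, so no value has a replicate, and intervals on shares and counts cover counting error alone. Peak names carry the tag Chromatin A for Pita and Zw5 but Chromatin B in the ZIPIC lists, while the sample labels give no preparation. The lists of Pita and Zw5 share the control library.

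Enrichment at a site is given as fold, the authors' ratio of the fragments stacked at the highest point of an interval (its summit) to the local background of the control. The number of stacked fragments (pileup) and the background were solved from the deposited fold and p-value of each peak. Background density was 0.0421 fragments per bp for Pita, 0.0427 for Zw5 and 0.00696 for ZIPIC. The shallow ZIPIC library limits what "lacking ZIPIC" can mean. Its lowest called fold was 3.94, and 96 of the 191 Zw5 intervals in these pairs (50.3%, Wilson 95% interval 43.2 to 57.3) had a fold below that. ZIPIC enrichment of that size was therefore not detectable at this depth. None of the 191 pairs overlapped the ZIPIC list called against preimmune serum either. The same held for the 1135 other autosomal Pita intervals and the 224 other autosomal Zw5 intervals without a ZIPIC input interval. The absence therefore does not set the pairs apart.

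The pairs joined high Pita intervals to low Zw5 intervals. The 189 Pita intervals had a median fold over input of 30.7 (interquartile range 9.14 to 37.8, range 2.58 to 42.8). The 1134 autosomal Pita intervals that overlapped neither other protein (lone intervals) had a median of 8.06 (3.83 to 24.1, range 2.19 to 41.9). The 191 Zw5 intervals had a median fold of 3.90 (3.31 to 5.52, range 2.64 to 34.4), against 17.7 (4.28 to 24.6, range 2.28 to 36.8) in the 223 autosomal Zw5 intervals that overlapped neither other protein. The Pita and Zw5 intervals that met with ZIPIC on at least 1 of them were similar to the pairs without ZIPIC in this respect, with medians of 27.5 for 47 Pita intervals and 4.28 for 49 Zw5 intervals. Zw5 intervals that met ZIPIC but not Pita had a median of 4.09 (97 intervals).

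Within the pairs the Pita fold was above the Zw5 fold in 163 of 191 (85.3%, 79.6 to 89.7). The ranks of the folds within the autosomal lists put 103 pairs in the upper part of the Pita list and the lower part of the Zw5 list, divided at the medians. In the opposite corner, low for Pita and high for Zw5, lay 24 pairs. Another 36 were in the upper part of both lists and 28 in the lower part of both. Across all 191 pairs the folds had a Spearman rho of −0.20 and a Pearson r of −0.36, as a description over sites that share the input library. Pairs with a Zw5 fold below 5 (137 pairs) had a median Pita fold of 34.2, and the 18 pairs with a Zw5 fold of at least 10 had a median Pita fold of 8.59 (range 2.73 to 37.7).

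**Figure D1:**
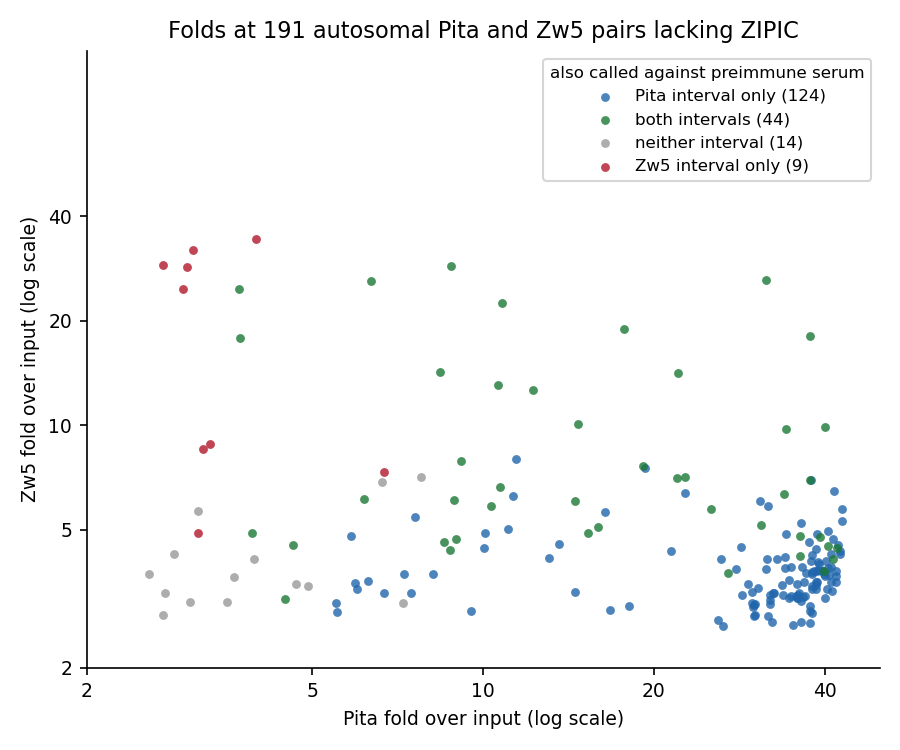
Each point is 1 of the 191 pairs, with the Pita fold over input on the horizontal axis and the Zw5 fold over input on the vertical axis, both on log scales. Colour gives which interval was also called against preimmune serum. Points crowd at Pita folds above 30 and Zw5 folds below 5 (86 pairs), and 1 point has both folds at 20 or more.

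Fragment counts were solved from the same deposited folds and p-values, so they restate this arrangement and are not separate evidence for it. They put it on a scale where the background density is nearly equal for both proteins. The median Pita pileup in the pairs was 370 fragments (interquartile range 101 to 416), and that of lone Pita intervals was 92.5 (45 to 288). The median Zw5 pileup in the pairs was 48 fragments (41 to 71.5), against 271 (60.5 to 383) in lone Zw5 intervals. The highest Pita pileup in the list, 436, equals 2 times the shortest Pita interval of 218 bp, which is the most that 1 read per position and strand would allow over that length. Of the 189 Pita intervals in the pairs, 78 (41.3%, 34.5 to 48.4) lay within 10% of this value, against 69 of the 1134 lone ones (6.08%, 4.84 to 7.63). The sources used here do not say how duplicate reads were treated, so whether this value is a ceiling is not known. Folds of the highest Pita sites differ little, and their order is given as it stands in the list.

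**Figure D2:**
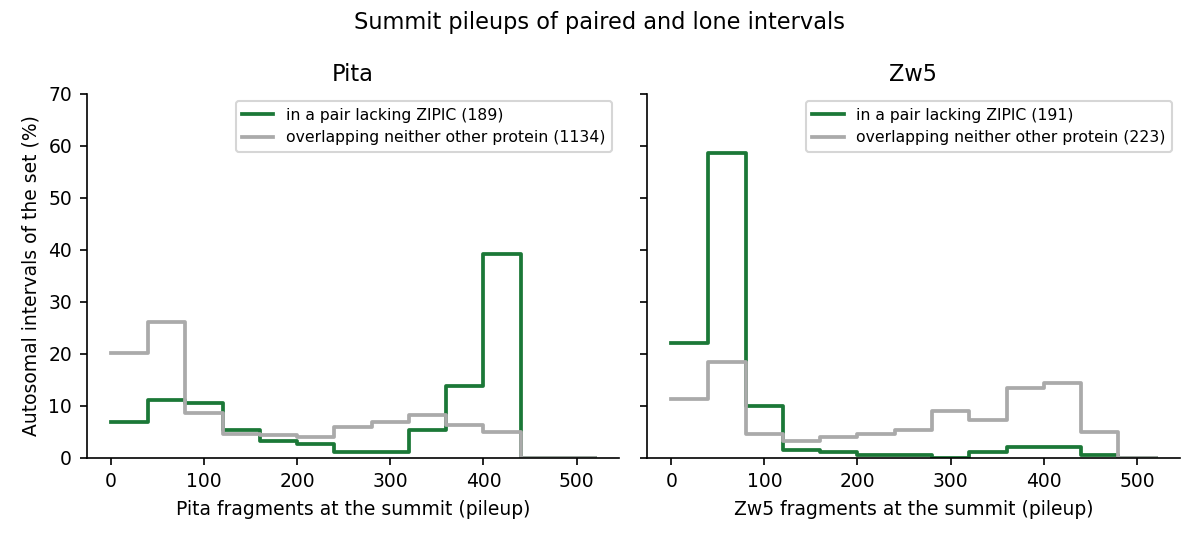
The lines give the share of autosomal intervals (vertical axis, percent of the set) in bins of 40 fragments at the summit (horizontal axis), for intervals in a pair lacking ZIPIC and for intervals overlapping neither other protein. In the Pita panel 39.2% of the paired intervals lie between 400 and 440 fragments, and in the Zw5 panel 58.6% of the paired intervals lie between 40 and 80.

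Divided by fold into 10 groups of equal size, the autosomal Pita list held most of its paired intervals at the top. The highest group, with folds from 34.9 to 42.8, had 72 paired intervals of 141 (51.1%, 42.9 to 59.2), and the next had 31 of 140 (22.1%, 16.1 to 29.7). The remaining 8 groups had between 3.57% and 14.2%. Among the 20 autosomal Pita intervals with the highest folds, 16 were in a pair lacking ZIPIC, 1 was shared with ZIPIC on the pair and 3 were alone. The Zw5 list ran the other way. The 3 groups with the highest Zw5 folds had 12.5%, 5.36% and 12.5% paired intervals, in order of rising fold, and the lower 7 had between 32.1% and 57.1%. Of the 20 autosomal Zw5 intervals with the highest folds, 2 were in a pair lacking ZIPIC and 16 were alone. These shares restate where the rule found its members and have no test.

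**Figure D3:**
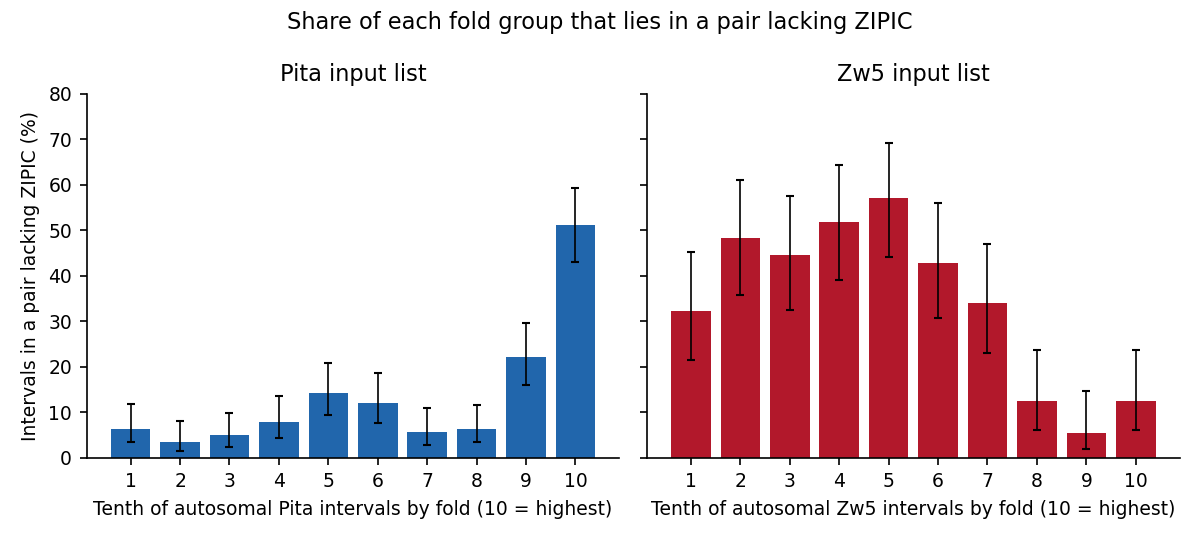
Bars give the percentage of autosomal intervals that lie in a pair lacking ZIPIC, in 10 groups of equal size ordered by fold over input (10 is the highest), for the Pita list and the Zw5 list. Error bars are Wilson 95% intervals. The Pita share reaches 51.1% in the highest group, and the Zw5 share is 57.1% in the fifth group and 12.5% in the highest.

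The 10 pairs with the highest Pita folds lay between 41.4-fold and 42.8-fold for Pita, with 425 to 435 fragments, and between 3.54-fold and 6.45-fold for Zw5. The first was 2R 8553005 to 8554084 (dm3, counted from 1), where Pita had 435 fragments and stood 42.8-fold over input and 12.2-fold against preimmune serum. Its Zw5 interval, 8553268 to 8553639, had 64 fragments (exact Poisson 95% interval 49.3 to 81.7) and a fold of 5.76, and the summits were 5 bp apart. The site at 3L 6542862 to 6543917 also had 435 Pita fragments and a Pita fold of 42.8, with a Zw5 fold of 5.31. At 2L 18152217 to 18152987 and at 3R 12795114 to 12796058 the Pita fold was 42.6 and the Zw5 folds were 4.25 and 4.34. None of these 4 Zw5 intervals was called against preimmune serum. The site at 2L 1909507 to 1910473 was the 1 of the 10 where Zw5 was called against preimmune serum too, with Pita 42.0-fold and Zw5 4.43-fold over input, and 38.1-fold and 3.82-fold against preimmune serum.

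The remaining 5 of these 10 sites were 3R 21706905 to 21707893 (Pita 42.2-fold and Zw5 4.52-fold over input), 2R 13759264 to 13759951 (41.9 and 3.54), 2L 20293687 to 20294714 (41.9 and 3.69), 3R 10112290 to 10113113 (41.8 and 3.81) and 2R 8930453 to 8931413 (41.4 and 6.45). In all 5 the Zw5 interval lay inside the Pita interval. Summit distances at the 10 sites ran from 2 to 100 bp.

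The 10 pairs with the highest Zw5 folds were of the opposite kind, and 9 of them had a Pita fold of 10.8 or less. The highest was 3L 5145263 to 5146119, where Zw5 had 460 fragments and stood 34.4-fold over input and 20.2-fold against preimmune serum. The Pita interval inside it, 5145484 to 5145824, had 47 fragments (exact Poisson 95% interval 34.5 to 62.5) and a fold of 3.98, and it was not called against preimmune serum. At 3L 11057525 to 11058540 Zw5 stood at 31.9-fold over either control and Pita at 3.07-fold over input. The sites 2R 5465993 to 5466907 (Zw5 28.9-fold, Pita 2.73-fold), 2L 5948807 to 5949922 (28.5 and 3.01) and 2L 12433955 to 12435183 (24.8 and 2.95) also had Pita intervals called against input alone. At 3L 19055472 to 19056548 (28.8 and 8.78), 2R 5858225 to 5859096 (26.1 and 6.34), 2L 12704073 to 12704920 (24.7 and 3.71) and 2L 2374297 to 2375016 (22.5 and 10.8) both proteins were called against preimmune serum as well.

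The exception among these 10 was 2R 8323959 to 8325075, and it was also the 1 pair of the 191 with both folds at 20 or more. Pita had a fold of 31.5 and 405 fragments there, and the Zw5 interval 8323213 to 8324054 had a fold of 26.3 and 370 fragments. The intervals overlapped by 96 bp, the shortest overlap of any pair, and their summits were 996 bp apart, the greatest distance of any pair. A second Zw5 interval, 8324432 to 8324799, overlapped the same Pita interval with a fold of 3.85 and a summit 58 bp from that of Pita. High Pita and high Zw5 enrichment thus lay side by side in this region, with a low Zw5 interval at the Pita summit. The other Pita interval with 2 partners was 3R 13442078 to 13443381, at 38.7-fold, with Zw5 intervals of 3.54-fold and 4.87-fold whose summits were 393 and 160 bp away.

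Pairs were also ordered by the sum of both ranks, which counts small differences among the highest Pita sites, and the first 2 pairs were nearly level. The pair at 3R 12623752 to 12624838 had folds over input of 40.04 for Pita and 9.92 for Zw5 and folds over preimmune serum of 12.9 and 4.56. Its summits were 181 bp apart. The other, 2L 20120405 to 20121383, had folds over input of 37.7 and 18.1, 383 Pita fragments and 203 Zw5 fragments, and summits 69 bp apart. Over preimmune serum its folds were 11.4 and 5.12. Further pairs by this order were 3L 19132999 to 19134088 (37.9 and 6.96 over input), 2L 19887304 to 19888172 (37.6 and 6.94) and 3R 2534324 to 2535778 (40.6 and 4.94), and the other 5 of the first 10 are named above. In all, 8 pairs had both folds at 10 or more, and 14 had both below 5.

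Where Pita was high, the Zw5 fragments above background came to a small share of the Pita fragments above background. In the 110 pairs whose Pita pileup was at least 75% of the highest, this share had a median of 8.33% (interquartile range 7.27 to 10.4, range 5.14 to 121). In the other direction, Pita fragments above background had a median of 9.42% of the Zw5 ones (6.76 to 27.1, range 5.56 to 110.1) in the 10 pairs with a Zw5 fold of at least 20. Choosing pairs by a high Pita pileup holds the denominator within a narrow range, and 80 of these 110 pairs were within 10% of the highest pileup, so the spread of the shares is largely that of the Zw5 fragments. The low end of such shares is set by the calls. The smallest excess of any autosomal Zw5 interval was 16.4 fragments, or 3.86% of the highest Pita excess. Not every high site had a partner. Of the 336 autosomal Pita intervals with at least 75% of the highest pileup, 108 were in these pairs (32.1%, 27.4 to 37.3) and 199 were alone. Of the 112 autosomal Zw5 intervals with a fold of at least 20, 10 were in these pairs (8.93%, 4.92 to 15.7) and 96 were alone. Whether reads of 1 library entered the other was not tested.

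Calling the same precipitate against preimmune serum kept most of the Pita intervals and few of the Zw5 intervals. Of the 189 Pita intervals, 166 were also called against preimmune serum (87.8%, 82.4 to 91.8), where 74.6% of all autosomal Pita intervals were and 72.2% (69.5 to 74.8) of the lone ones. Of the 191 Zw5 intervals, 53 were (27.7%, 21.9 to 34.5), where 53.4% of all autosomal Zw5 intervals were and 77.1% (71.2 to 82.2) of the lone ones. Within groups of like fold, paired Zw5 intervals also had a lower share called than all others in each of the lower 7 groups. The others include intervals with ZIPIC, and no test was made. Against lone Zw5 intervals, the paired share was not lower in the lowest group (0 of 18 paired and 0 of 23 lone). Nor was it lower at folds of 4.07 to 4.85 (10 of 32 paired and 1 of 4 lone). It was lower in the rest of the 7, but some of these groups held only 7 or 8 lone intervals. Of the 10 groups of Zw5 intervals by fold, the seventh had 12 of 19 paired and 35 of 37 other intervals called against preimmune serum, the sixth 11 of 24 and 24 of 32, the fifth 10 of 32 and 9 of 24, the fourth 2 of 29 and 11 of 27, the third 0 of 25 and 10 of 31, the second 1 of 27 and 5 of 29, and the lowest 0 of 18 and 1 of 38. In the 3 highest Zw5 groups all paired and other intervals were called. For Pita the higher share was not seen within most groups of like fold. From the sixth to the highest Pita group all paired and other intervals were called. In the fifth 16 of 20 paired and 115 of 121 other Pita intervals were, and in the fourth 9 of 11 and 106 of 129. The third had 4 of 7 and 57 of 134, the second 0 of 5 and 33 of 135, and the lowest 0 of 9 and 6 of 131. The 53 Zw5 intervals had a median fold over input of 7.04, and the 138 others had a median of 3.62 and a maximum of 8.01. Among the 18 pairs with a Zw5 fold of at least 10, 18 had Zw5 called against preimmune serum, and among the 100 pairs with a Pita fold of at least 30, 14 did.

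By pair, 124 of 191 (64.9%, 57.9 to 71.3) had the Pita interval alone called against preimmune serum. In these the median folds over input were 35.1 for Pita (range 5.51 to 42.8) and 3.63 for Zw5 (2.64 to 8.01). In 44 pairs (23.0%, 17.6 to 29.5) both intervals were called, with median folds over input of 15.6 (3.71 to 42.0) for Pita and 6.24 (3.16 to 28.8) for Zw5 and over preimmune serum of 11.3 (2.71 to 38.1) and 4.26 (2.36 to 24.3). In 9 pairs the Zw5 interval alone was called, with median folds of 3.14 (2.73 to 6.68) for Pita and 24.8 (4.90 to 34.4) for Zw5. In the remaining 14 neither was, and the medians were 3.59 (2.58 to 7.76) and 3.57 (2.83 to 7.08). Within the 44 pairs the folds of the 2 proteins had a Spearman rho of −0.23 over input and −0.25 over preimmune serum, again as a description over sites that share the precipitates.

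Fold over input exceeded fold over preimmune serum at most of these sites. For the 166 Pita intervals called against both controls the ratio of the 2 folds had a median of 1.67 (interquartile range 1.32 to 2.21), against 1.23 (1.05 to 1.62) in 819 lone Pita intervals. In the highest of the 10 fold groups the medians were 1.72 for 72 paired intervals and 1.60 for 58 lone ones, and in the sixth group they were 1.71 for 17 paired and 1.15 for 116 lone. For Zw5 the ratio had a median of 1.43 (1.15 to 1.91) in 53 paired intervals and 1.17 (0.979 to 1.47) in 172 lone ones. In the highest Zw5 fold group the medians were 1.35 for 7 paired and 1.37 for 46 lone intervals. In the ninth they were 1.03 for 3 and 1.07 for 50, and in the eighth 2.52 for 7 and 1.09 for 45. In the lower groups where both kinds were called, the paired median was the higher, but some of these medians rest on very few intervals. The second group had 1 paired and 2 lone intervals called against both controls, the fourth 2 and 3, and the fifth 10 and 1. These ratios have no test, and the part of the preimmune library in the Zw5 calls was not tested.

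The input background of Zw5 intervals differed as well, taken over all folds. The lowest background in each list, 9.18 fragments for Pita and 10.3 for Zw5, is the one MACS2 uses where it finds no local excess of control reads. Of the Zw5 intervals in the pairs, 57 of 191 (29.8%, 23.8 to 36.7) had it, against 23 of 223 lone Zw5 intervals (10.3%, 6.97 to 15.0) and 16.1% of all autosomal ones. For Pita the counts were 55 of 189 (29.1%, 23.1 to 35.9) and 361 of 1134 (31.8%, 29.2 to 34.6). Within the 10 groups by Zw5 fold, lone intervals had the higher share in the second, sixth, ninth and highest groups. Paired intervals had the higher share in the rest. In the sixth group 6 of 24 paired and 3 of 7 lone Zw5 intervals had this background, and in the seventh 7 of 19 and 3 of 16. A lower background makes a low pileup easier to call, and its part in the Zw5 calls was not tested.

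The summits of both proteins lay close together. Their distance had a median of 36 bp (interquartile range 14 to 61, range 0 to 996). Summits were within 10 bp in 36 pairs (18.8%, 13.9 to 25.0), within 50 bp in 123 (64.4%, 57.4 to 70.8) and within 100 bp in 161 (84.3%, 78.5 to 88.8). In 13 pairs they were more than 200 bp apart. The Pita summit of the same precipitate moved by a median of 1 bp between the 2 controls (166 intervals, at most 22 bp) and the Zw5 summit by 0 bp (53 intervals, at most 8 bp). Both lists stack the same precipitate reads, so these shifts do not measure how far a summit moves between libraries. No replicate library gives that error to set beside the distance between Pita and Zw5 summits. Overlap alone bounds the distance, so it was not tested.

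Distance hardly varied with the height of Zw5. In 3 groups of rising Zw5 fold (63, 64 and 64 pairs) the medians were 36, 37.5 and 36 bp. In pairs with both intervals called against preimmune serum the median was 43 bp (interquartile range 25 to 63), and with Pita alone called it was 29.5 bp (11 to 60.3). The Zw5 summit was at the higher coordinate in 98 pairs, at the lower in 91 and at the same base in 2.

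**Figure D4:**
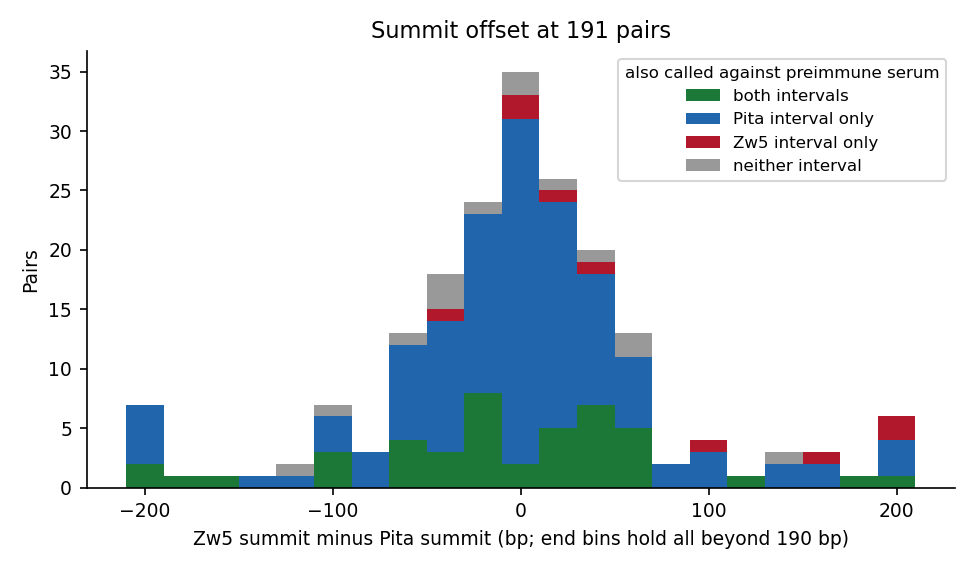
Bars count pairs (vertical axis) by the position of the Zw5 summit minus that of the Pita summit in bp (horizontal axis, bins of 20 bp, with all pairs beyond 190 bp in the end bins). Colour gives which interval was also called against preimmune serum. The bars centre on 0, with 123 of 191 pairs within 50 bp.

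Among pairs called against preimmune serum for both proteins, the closest summits were 1 bp apart at 3L 11041002 to 11041344, where the folds were 6.17 for Pita and 6.14 for Zw5. They were 7 bp apart at 2L 5009221 to 5010147 (25.2 and 5.73), 12 bp at 3L 711819 to 712505 (14.7 and 10.1), 13 bp at 3L 3616317 to 3616725 (9.14 and 7.88) and 14 bp at both 2L 4345505 to 4346492 (39.2 and 4.76) and 3L 14104435 to 14104966 (22.0 and 14.2). Besides the 2R region above, the farthest summits were 849 bp apart at 3L 10313712 to 10315469 (38.6 and 3.36), 520 bp at 2L 5948459 to 5949155 (3.01 and 28.5), 518 bp at 3R 5693973 to 5695321 (33.7 and 3.47) and 460 bp at 3R 12085997 to 12086967 (26.2 and 4.11).

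The narrower Zw5 interval usually lay within the Pita interval. Pita intervals in the pairs had a median width of 718 bp (range 218 to 1792) and Zw5 intervals one of 337 bp (241 to 1229), against 483.5 bp for lone Pita and 696 bp for lone Zw5 intervals. Width broadly rose with fold, and these gaps were smaller at like fold. The medians were 914.5 bp paired and 848.5 bp lone in the highest Pita fold group, and 431 and 481.5 bp in the seventh Zw5 group. The Zw5 interval was inside the Pita interval in 150 pairs (78.5%, 72.2 to 83.8), and the reverse held in 17. The overlap had a median of 316 bp. Its smallest values were 96, 203 and 205 bp, in the 2R region above, at 2R 4982018 to 4982651 and at 2L 21757318 to 21757544, so no pair sat near the limit of 1 bp. On the other side of that limit, the closest intervals that did not overlap were 41 bp apart at 2R (Pita 19956378 to 19956683 at 3.57-fold, Zw5 19956041 to 19956336 at 2.56-fold). The next were 84 bp apart at 3R (Pita 10400948 to 10401353 at 5.21-fold, Zw5 10401438 to 10401881 at 7.90-fold) and 181 bp apart at 3R (Pita 17199690 to 17199923 at 2.54-fold, Zw5 17199139 to 17199508 at 5.11-fold), the last with ZIPIC on both intervals.

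The pairs were spread over the 4 arms, with 46 on 2L, 44 on 2R, 41 on 3L and 60 on 3R, or 1.71 to 2.20 pairs per Mb up to the highest coordinate of each arm. They made up 11.1% (3L) to 15.5% (2R) of the Pita intervals and 30.8% (3L) to 41.5% (2R) of the Zw5 intervals of an arm. The median Pita fold was 34.2 on 2L, 22.7 on 2R, 33.9 on 3L and 29.99 on 3R, and the median Zw5 fold was between 3.73 (2R) and 4.25 (2L). Zw5 was also called against preimmune serum in 17 of 46 intervals on 2L (37.0%, 24.5 to 51.4), in 14 of 44 on 2R, in 12 of 41 on 3L and in 10 of 60 on 3R (16.7%, 9.31 to 28.0). The share of all Zw5 intervals so called was 53.4% over the 4 arms and was not worked out by arm. No difference between arms is therefore read from these counts.

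Few paired Pita intervals had another paired one nearby. They were only 13.5% of autosomal Pita intervals, and the spacing of an equally small part of that list was not worked out. Another Pita interval of a pair lay within 5000 bp of 6 of the 189 (3.17%, 1.46 to 6.75), in 3 groups of 2 at 2R 11705949 to 11709467, 3L 710297 to 712505 and 3R 2531751 to 2535778. Counting Pita intervals of any kind, 33 of the 189 had a neighbour within 5000 bp (17.5%, 12.7 to 23.5), where 20.6% (18.6 to 22.8) of all autosomal Pita intervals did. For Zw5 the corresponding values were 21 of 191 (11.0%, 7.30 to 16.2) and 23.4% (20.1 to 27.1). The nearest ZIPIC interval was a median of 93169 bp away, and it was within 1000 bp of 2 pairs and within 10000 bp of 17.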

How the data were processed

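The 6 deposited narrowPeak files hold the peaks of 3 proteins, each called against input and, separately, against preimmune serum. Per the submitters' processing notes cutadapt, Bowtie, MACS2 2.1.0.20140616 and dm3 were used. The sources used here do not give their arguments. The authors' ratio is fold over the local control background at the summit, and their −log10 p and q belong to each peak. The deposited score was the whole part of 10 times −log10 q in 100% of input-list peaks.

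Pileup t and background λ were solved from the deposited fold, (t + 1)/(λ + 1), and Poisson tail p. They came within 0.05 of a whole read for 100% of input-list peaks, and the solution was tested on simulated data. The lists hold no library totals. Shares carry Wilson 95% intervals. No test was made, since regions of 1 library are not replicates. The pairs, regions to name and comparisons were chosen with earlier results of these data known. Regions were named by fixed ranks of fold, summit distance, overlap and gap, or for having 2 partners. Limits of fold and pileup in the text were chosen after the values were seen. The genes at the sites and their sequences were not analysed here, because the gene table used here follows another genome release. Alternatives changed the overlap, threshold, control and ZIPIC list. Python 3.11.15, numpy 2.4.6, pandas 2.3.3, scipy 1.17.1 and matplotlib 3.10.9 were used.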

Additional observations from a re-analysis of the deposited data

How the results depend on the processing

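The number of pairs, 191, was 190 when 50% of the shorter interval had to overlap, 161 for summits within 100 bp, 189 with ZIPIC kept 1000 bp away, 199 with the ZIPIC preimmune list used to leave pairs out and 191 with either ZIPIC list. It depended on the threshold and the control. A −log10 q of at least 10 in both lists left 114 pairs, with a median Zw5 fold of 4.69 and with 40.4% of Zw5 and 95.6% of Pita intervals called against preimmune serum. The preimmune lists in place of the input lists gave 44 pairs, with a median summit distance of 41.5 bp, and 43 of their 44 Pita intervals lay on a Pita interval of the pairs reported. Over preimmune serum the members called there had median folds of 16.9 for Pita and 4.37 for Zw5. Keeping only pairs called against preimmune serum for both proteins, a choice made after seeing the data, left 44 pairs, with median folds over input of 15.6 for Pita and 6.24 for Zw5 and a median distance of 43 bp. In each setting where median folds were worked out, Pita remained above Zw5. They were not worked out for the changes of ZIPIC list or margin, or for the preimmune lists in place of the input lists. The causes were not tested. ZIPIC signal below its lowest call is beyond what these lists resolve, and small differences among Pita folds near the highest pileup may be too.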
